A study of Mus musculus with 40 samples.

Results

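Genes that are widely used to recognise neutrophils were followed across choroid and retina after laser injury. The 10 genes were chosen by name, as S100a8, S100a9, Ly6g, Camp, Ngp, Ltf, Retnlg, Csf3r, Cxcr2 and Mmp8, and each was found once in the deposited table, so that 10 of its 54307 genes are described here. The rule names the genes and sets no threshold on a measured value. Messenger RNA was sequenced from choroid and retina of 20 mice, giving 40 libraries. In each eye 6 laser burns had been placed to induce choroidal neovascularization (CNV), the growth of new choroidal vessels through Bruch's membrane, and tissue was taken on day 3. The study asked what CNV becomes when endothelial cells cannot receive TGFβ signals, with and without microglia and macrophages, the resident and recruited mononuclear phagocytes.

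All mice carried 2 floxed alleles of Tgfbr2, had a C57BL/6J background, and received tamoxifen eye drops from an age of 6 to 7 weeks. Tgfbr2ΔEC mice (CrePos in the labels) also carried Cdh5-CreERT2, a tamoxifen-inducible Cre recombinase driven by the endothelial Cdh5 promoter, and control mice (CreNeg) were littermates without Cre. In each genotype 5 mice ate normal food (– PLX) and 5 ate food with PLX5622 (+ PLX), an inhibitor of the CSF1 receptor on which microglia and many macrophages depend, from the first tamoxifen drop to the end. The groups were therefore control – PLX (mice 1 to 5), Tgfbr2ΔEC – PLX (mice 6 to 10), control + PLX (mice 11 to 15) and Tgfbr2ΔEC + PLX (mice 16 to 20), with 5 mice each in both tissues. Every mouse was laser-treated, so no value from an uninjured eye is analysed here, and only the central choroid with the lesions was used. Sex differed among mice and is not given per mouse in the labels. The sex make-up of the groups may have been uneven, since 5 sex-linked genes (Xist and 4 genes of the Y chromosome) had a median log2 difference of -3.33 between Tgfbr2ΔEC and control choroids on PLX5622 and of -2.05 for PLX5622 in Tgfbr2ΔEC choroids, against 0.28 in control choroids, with 0 of 5 at an unadjusted p under 0.05 in each. With a sex score in the fit no count of members called changed. For genotype no member was called to begin with, so an unchanged count cannot show whether sex moved single values.

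Neutrophils are short-lived granulocytes that leave the blood within hours of tissue injury. They are made in bone marrow under granulocyte colony-stimulating factor, pack antimicrobial proteins and proteases into granules while they mature, and follow CXC chemokines into tissue through the receptor CXCR2. Genes for granule proteins are transcribed mainly in bone marrow, whereas S100a8, S100a9, Csf3r and Cxcr2 remain transcribed in mature cells, and monocytes also transcribe S100a8, S100a9 and Csf3r.

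Depth was estimated at 21.5 to 28.2 M reads per library in choroid and 20.9 to 30.4 M in retina, where M stands for 1e6. Values are normalized counts, in which 1 read was worth 0.905 to 1.19 in choroid and 0.745 to 1.13 in retina, and a value of up to 3 reads (2.72 to 3.57 in choroid, 2.24 to 3.38 in retina) is called the floor, below which counting error alone does not separate a gene from 0. Counting intervals of this kind cover counting error only. The targeted gene, Tgfbr2, did not separate the genotypes, at 9836 to 10849 in control – PLX and 8729 to 11304 in Tgfbr2ΔEC – PLX choroids and at 164 to 293 and 107 to 285 in the retinas. Whole tissue was measured and Cre acts in endothelium only, so these values do not check the deletion. The 6 marker genes of the retinal pigment epithelium summed to 154041 to 361292 in choroid and 6036 to 17300 in retina libraries. The 10 photoreceptor genes summed to 45806 to 134728 in Tgfbr2ΔEC – PLX choroids against 2739 to 25836 in control – PLX choroids, a median log2 difference of 2.63 with 0 of 10 called by limma and 10 of 10 at an unadjusted p under 0.05, and to 2391 to 129759 and 6296 to 20336 in control + PLX and Tgfbr2ΔEC + PLX choroids. Surface epithelium markers stood apart in 2 libraries, the choroid of mouse 4 with a sum over 10 genes of 25445 and the retina of mouse 1 with 32609, against 1182 to 5291 in the other choroids and 13.7 to 145 in the other retinas.

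The members lie at the following places in the mouse genome GRCm39. S100a8 (chr3:90567118-90578128, + strand) and S100a9 (chr3:90599931-90603071, – strand) are neighbours in the S100 gene cluster and encode the subunits of calprotectin, an abundant cytosolic protein of neutrophils. On chromosome 9 lie Mmp8 (chr9:7558457-7568487, + strand), Camp (chr9:109676442-109678685, – strand), Ngp (chr9:110248815-110252086, + strand) and Ltf (chr9:110848339-110871835, + strand). Csf3r is at chr4:125918262-125938236 (+ strand), Cxcr2 at chr1:74193150-74200405 (+ strand), Ly6g at chr15:75027089-75030982 (+ strand) and Retnlg at chr16:48692547-48694862 (+ strand). In GENCODE release vM39 the antisense RNA Gm32908 shares 235 exon bases with Csf3r and the antisense RNA Gm31751 shares 263 with Mmp8. Neither RNA is listed in the table, and although the library kit keeps strand, the strand setting of the quantification is not given in the sources used here.

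The 150 bases before the annotated start of 4 members are shown because these genes gave the contrasting patterns described further on: S100a8 and S100a9 varied together, Camp was read in every choroid and in no retina, and Mmp8 fell with PLX5622. The windows are chr3:90576135-90576284 (+) for S100a8, chr3:90603072-90603221 (–) for S100a9, chr9:109678686-109678835 (–) for Camp and chr9:7558307-7558456 (+) for Mmp8, read from GRCm39 along the gene's strand. Capitals mark matches, on either strand, to GAGGAA, a core bound by the myeloid factor PU.1, or to TTNNGNAA, the pattern bound by C/EBP factors, which drive granulocyte genes.
S100a8: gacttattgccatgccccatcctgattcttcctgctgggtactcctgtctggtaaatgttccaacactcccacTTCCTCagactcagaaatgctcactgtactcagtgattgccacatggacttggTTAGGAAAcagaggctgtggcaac
S100a9: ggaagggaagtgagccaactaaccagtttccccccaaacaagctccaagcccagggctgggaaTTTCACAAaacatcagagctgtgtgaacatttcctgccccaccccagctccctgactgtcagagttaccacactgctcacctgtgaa
Camp: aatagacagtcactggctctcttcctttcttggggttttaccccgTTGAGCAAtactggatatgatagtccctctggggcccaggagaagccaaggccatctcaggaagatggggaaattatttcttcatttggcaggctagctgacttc
Mmp8: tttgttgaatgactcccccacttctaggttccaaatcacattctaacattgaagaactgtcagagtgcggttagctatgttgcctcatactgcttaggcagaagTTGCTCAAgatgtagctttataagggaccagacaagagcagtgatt
All 4 windows held TTNNGNAA, a pattern found in 22.2% of 21770 protein-coding genes with a window of the same length, and S100a8 also held GAGGAA, found in 14.2%. The window of S100a8 had TTAGGAAA from 24 to 17 bases and the complement of GAGGAA from 77 to 72 bases before the start. Of the other 6 members, Ngp and Ltf held TTNNGNAA, Ly6g, Ltf and Cxcr2 held GAGGAA, and Retnlg and Csf3r held neither. A match is a description of letters and not a measured binding site, and the Mmp8 window also overlaps an exon of Gm31751 on the opposite strand.

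In choroid, transcripts of cytosolic, receptor and protease members were read in every mouse, whereas Ly6g stayed at or under the floor. Above the floor were 7 members in all 20 choroids, Ltf in 18 and Ngp in 2. Ly6g, which encodes the surface antigen used to sort mouse neutrophils, was above 0 in 3 choroids, at 1.16, 1.83 and 2.93, and in 1 retina, at 2.04, all of which lie at or under the floor. Ly6g belongs to a family of similar neighbouring genes, among which the quantification has to divide reads. Ngp, for neutrophilic granule protein, reached 5.14 in mouse 19 and 3.39 in mouse 12 and was at 0 in 11 choroids. Per kilobase of transcript, mean choroid levels over 20 mice (± SD) were 107 ± 47.7 for Csf3r, 102 ± 20.9 for Camp, 84.7 ± 49.9 for S100a9, 75.7 ± 45.1 for S100a8, 47.9 ± 30.1 for Retnlg, 42.3 ± 24.1 for Mmp8, 14.9 ± 28.9 for Ltf, 10.9 ± 5.88 for Cxcr2, 0.793 ± 1.17 for Ngp and 0.312 ± 0.822 for Ly6g. Among neighbours in this order only the step from Cxcr2 to Ngp was larger than the SD of both genes. Of the primary granule genes in the wider neutrophil list, Mpo (myeloperoxidase) was at 0 in 17 choroids, Elane (neutrophil elastase) in 16 and Ctsg (cathepsin G) in 6, with highest values of 13.8, 9.91 and 5.65, whereas Prtn3 (proteinase 3) was above the floor in all 20, at a mean of 21.98. Prtn3 was above the floor in all 20 retinas too, at a mean of 16.5, and shares 197 exon bases with Plppr3 on the opposite strand.

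**Figure D1:**
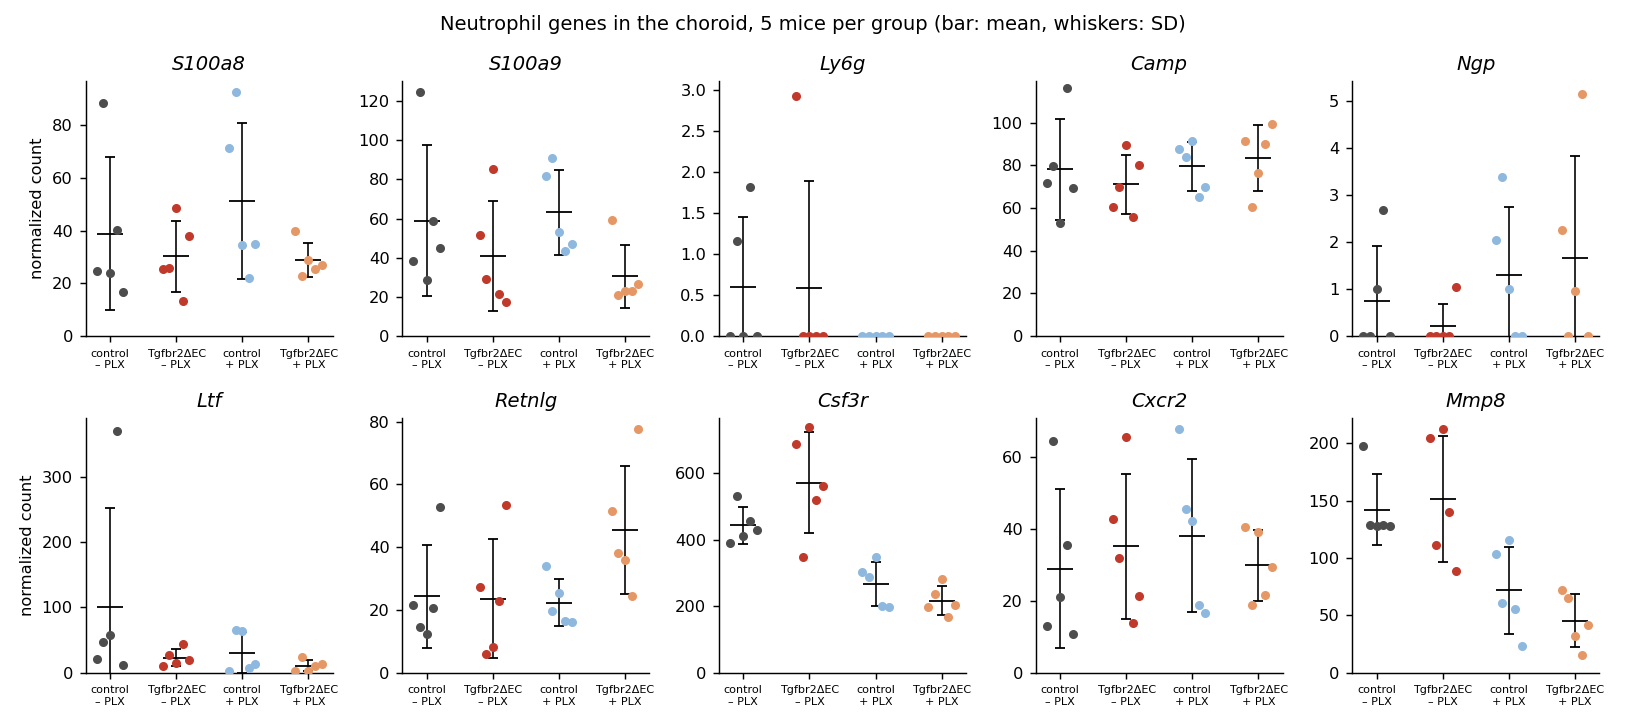
Normalized counts (y axis, linear, from 0) of the 10 neutrophil genes in choroid, with 1 point per mouse, the mean as a bar and the SD as whiskers, which are cut at 0, for the 4 groups of 5 mice. Csf3r and Mmp8 sit lower in both + PLX groups, Camp lies between 53.0 and 116 everywhere, and 1 choroid reaches 370.0 for Ltf.

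All 8 members that could be tested over the 40 libraries were higher in choroid than in retina, in a comparison in which 82% of the 24317 genes tested differed (9924 higher and 10006 lower in choroid). The median log2 difference was 4.02 for the 8 members and -0.0116 for all genes tested. Camp, Retnlg and Mmp8 are counted here, but had retinal means of 0, 0.646 and 0.860. They passed the filter of a mean of at least 1 only through choroid, so their direction was fixed in advance. Camp encodes the antimicrobial peptide cathelicidin. Its choroid values were 72.0, 79.7, 53.0, 116 and 69.4 in control – PLX mice and 60.5, 69.7, 89.8, 55.8 and 80.1 in Tgfbr2ΔEC – PLX mice. With PLX5622 they were 87.5, 84.1, 91.6, 65.2 and 70.0 in control and 91.5, 60.5, 76.2, 89.9 and 99.4 in Tgfbr2ΔEC mice, and in all 20 retinas the gene was at 0. Camp was thus the steadiest member in choroid, its mean of 78.1 being at least 26.8-fold higher than the mean retinal floor of 2.91 per library.

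Of the other members, all but Csf3r gave few reads in most retinas. S100a8 was above 0 in 13 of 20 retinas, with a highest value of 7.94 in mouse 5, and S100a9 in 12, with a highest value of 16.5 in mouse 6. Retnlg, for a resistin-like secreted protein of neutrophils, was above the floor in 1 retina, at 3.996, and Mmp8 in 2, at 6.47 and 5.83 in mice 1 and 5. Csf3r and Cxcr2 were the members read in most retinas, each above 0 in 19 of 20 and above the floor in 17 and 16. The highest retinal Cxcr2 value, 38.6, came from mouse 1, whose retina stood apart in surface epithelium markers. The log2 difference of choroid over retina was 4.25 ± 0.26 (SE) for Csf3r, 2.17 ± 0.29 for Cxcr2, 3.79 ± 0.30 for S100a8, 3.91 ± 0.33 for S100a9, 4.13 ± 0.25 for Retnlg, 5.90 ± 0.24 for Mmp8 and 3.20 ± 0.50 for Ltf, with adjusted p-values of 3.6e-07 or smaller. With a pseudocount of 5 in place of 1 the differences of S100a8, Retnlg and Ltf were 2.47, 2.42 and 1.85, and with the surface epithelium score in the fit that of Ltf was 1.43 (adjusted p = 0.00284). S100a8, Retnlg and Mmp8 had mean retinal values under the floor, and against the mean floor their choroid means were at least 12.8-fold, 9.93-fold and 35.2-fold higher. The choroid value was the higher one in 20 of 20 mice for S100a8, S100a9, Camp, Retnlg, Csf3r and Mmp8, and in 18 of 20 for Ltf and Cxcr2. Markers of other cell types differed in the same direction. Those of mononuclear phagocytes summed to 8015 to 41609 in choroid and 290 to 3677 in retina. Monocyte markers summed to 36187 to 59262 and 966 to 2473, and erythroid genes to 324 to 5778 and 12.9 to 690. The folds of the members rest on the authors' scaling of both tissues together, and since no blood was measured, how much of either tissue's signal came from blood left in vessels was not tested.

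**Figure D2:**
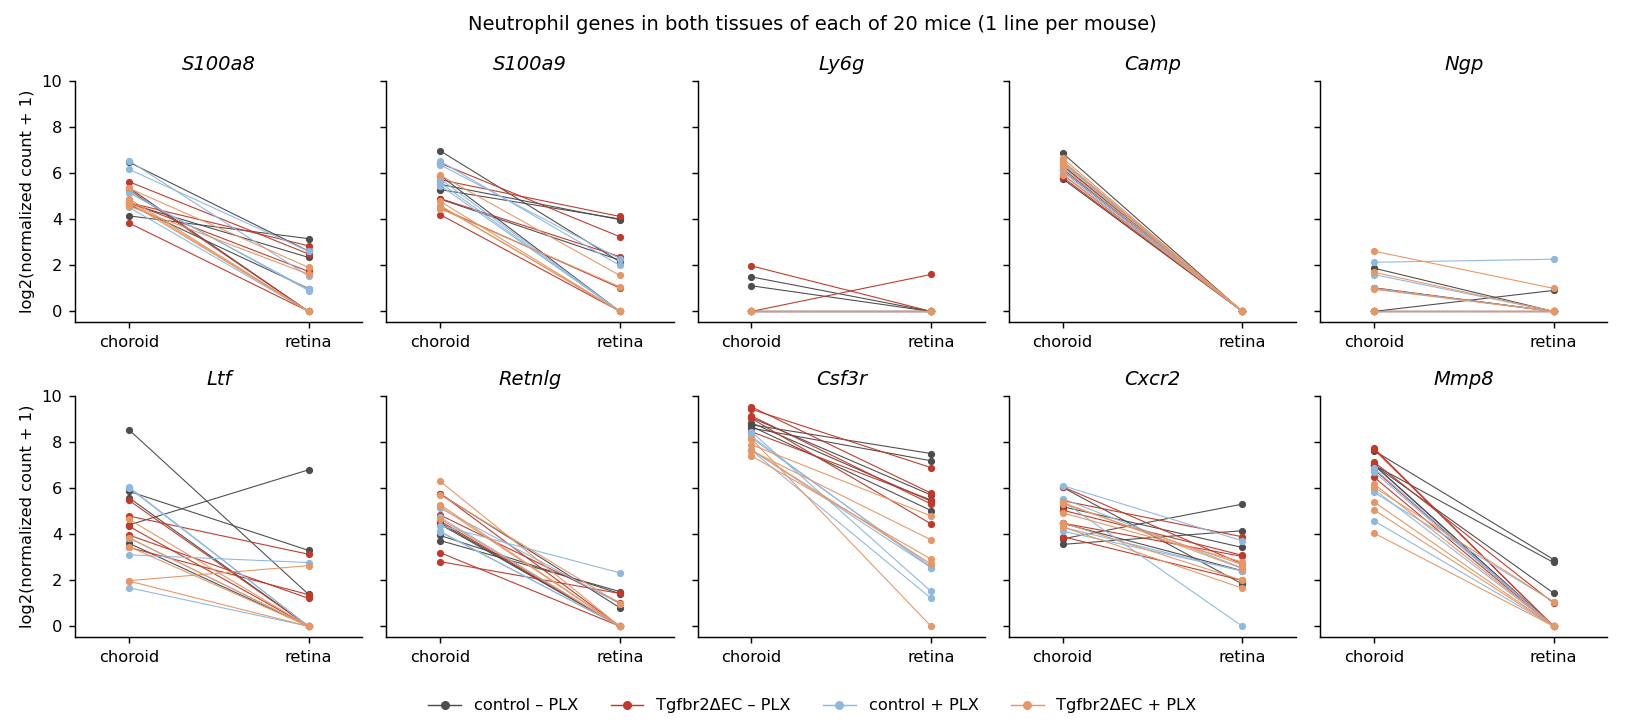
Each line joins the choroid and retina value of 1 mouse on the log2(normalized count + 1) scale (y axis), coloured by group, for the 10 neutrophil genes. Camp falls to 0 in every retina, Csf3r keeps retinal values in – PLX mice, and Ltf is higher in retina than in choroid in mouse 1, with a retinal value of 110.3.

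PLX5622 went with lower Csf3r in choroid. Csf3r encodes the receptor for granulocyte colony-stimulating factor. On normal food its choroid values were 389.6, 533, 410.3, 457 and 431 in control mice and 687, 349, 739, 521 and 563 in Tgfbr2ΔEC mice. On PLX5622 they were 302, 289, 348, 201 and 198 in control mice and 197, 236, 282, 168 and 202 in Tgfbr2ΔEC mice. Every + PLX choroid thus lay below every – PLX choroid of its genotype. Group means fell from 444 ± 55.6 (SD, n = 5) to 268 ± 65.7 in control and from 572 ± 153 to 217 ± 43.5 in Tgfbr2ΔEC choroids.

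By limma on the log2 scale Csf3r fell by 1.37 (SE 0.20, adjusted p = 9.73e-05) in Tgfbr2ΔEC choroids and by 0.76 (SE 0.20, adjusted p = 0.031) in control choroids. Over both genotypes it fell by 1.06 (SE 0.14, adjusted p = 1.57e-05), and the exact permutation p within genotypes was 3.15e-05, the smallest that these 63504 relabellings can give. Within each genotype the exact permutation p was 0.00794, which is the smallest possible with 5 against 5 mice. The call in control choroids was thin, since it was lost without mouse 2, 4, 5, 14 or 15 alone (log2 difference -0.86 to -0.66 and adjusted p 0.0125 to 0.102 over the 20 mice left out in turn). It was also lost without mice 1 and 4 together (adjusted p = 0.0931) and with the surface epithelium score in the fit (adjusted p = 0.0586).

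Mmp8, the collagenase of neutrophil granules, fell together with Csf3r. Choroid values on normal food were 197, 128, 128, 129 and 127 in control and 204, 112, 212, 140.0 and 88.2 in Tgfbr2ΔEC mice. With PLX5622 they were 103, 60.7, 116, 55.3 and 22.97 in control and 72.0, 65.0, 32.3, 15.5 and 41.4 in Tgfbr2ΔEC mice. Here too no + PLX value reached a – PLX value of the same genotype, and the exact permutation p was 0.00794 in each. In limma's test over all genes Mmp8 fell by 1.82 (SE 0.41, adjusted p = 0.0117) in Tgfbr2ΔEC choroids and by 1.49 (SE 0.29, adjusted p = 0.00183) over both genotypes, while the difference of -1.15 (SE 0.41) in control choroids had an adjusted p of 0.165.

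Of the 8 members tested in choroid, 1 was called in control mice, where 3.75% of 23619 genes were called, 2 in Tgfbr2ΔEC mice, where 4.06% were called, and 2 over both genotypes, where 7.13% were called. No member rose. The members tested were all but Ly6g and Ngp, whose choroid means were below 1. Their median log2 difference over both genotypes was 0.06, beside 0.0005 for all genes tested. In bulk tissue, fewer cells of a type and less RNA per cell cannot be told apart.

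The markers of mononuclear phagocytes moved with these 2 genes. Summed over 12 genes, control choroids held 36603 to 41609 without and 8871 to 11546 with PLX5622, and Tgfbr2ΔEC choroids 33981 to 39999 without and 8015 to 10530 with it. In choroid 11 of the 12 fell over both genotypes, beside 7.13% called among all genes, with Csf1r from a mean of 8411 to 4097 and C1qa from 5383 to 567 in control mice. Among 8 monocyte markers 3 fell, and Ccr2, the chemokine receptor of inflammatory monocytes, went from 2505 to 579 in control and from 2106 to 724 in Tgfbr2ΔEC choroids. The sum over the 8 monocyte markers did not separate the diets. It was 43616 to 59262 without and 41229 to 57582 with PLX5622 in control choroids, and 36187 to 56817 and 44796 to 58204 in Tgfbr2ΔEC choroids. The part of phagocytes and monocytes in the lower Csf3r and Mmp8 was not tested. In Tgfbr2ΔEC choroids the 10 photoreceptor genes were also lower with PLX5622 (median log2 difference -2.19, 0 called by limma and 10 of 10 at an unadjusted p under 0.05) and erythroid genes higher (median 1.73, 0 of 6 called and 5 of 6 at an unadjusted p under 0.05, with sums of 324 to 1225 without and 795 to 5778 with PLX5622). With the photoreceptor score in the fit, Csf3r differed by -1.55 (adjusted p = 0.000206) and Mmp8 by -2.43 (adjusted p = 0.00192) in these choroids, and the part of blood was not tested. With the group means removed, Csf3r had r = 0.51 with the phagocyte score in choroid (rho = 0.49, permutation p = 0.0396 and 0.0480) and Mmp8 had r = 0.55 (rho = 0.49, permutation p = 0.0714 and 0.0687), and neither passed adjustment over 77 relations (adjusted p = 0.161 and 0.223). With the monocyte score Mmp8 had r = 0.57 (permutation p = 0.0273, adjusted p = 0.131; rho = 0.56, p = 0.0202, adjusted p = 0.103) and Csf3r r = 0.43 (permutation p = 0.101, adjusted p = 0.252; rho = 0.47, p = 0.0623, adjusted p = 0.192).

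**Figure D3:**
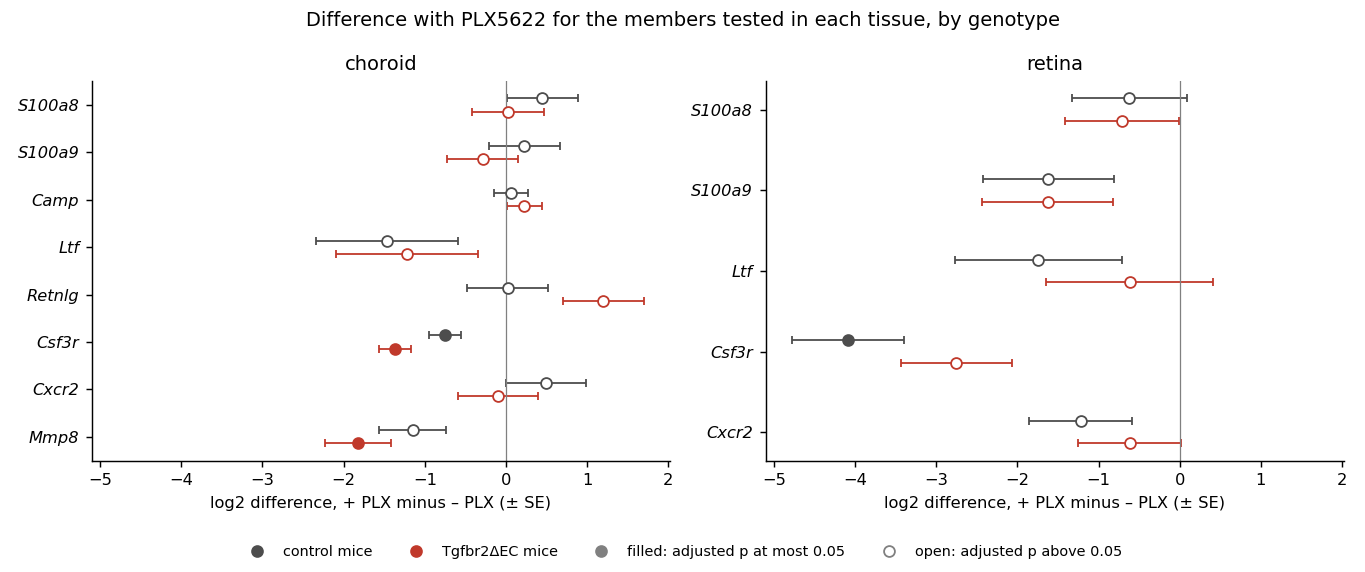
Log2 difference between + PLX and – PLX groups (x axis, ± SE) for each member tested in choroid (left) and retina (right), in control and Tgfbr2ΔEC mice; filled points have an adjusted p of at most 0.05. Filled points are Csf3r in both genotypes and Mmp8 in Tgfbr2ΔEC choroids, and Csf3r in control retinas.

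The calprotectin genes and Cxcr2 were not called for diet in choroid, and their difference from Csf3r was not tested. S100a8 measured 24.8, 88.5, 23.8, 40.4 and 16.8 in control – PLX choroids and 71.3, 92.7, 34.6, 21.97 and 34.98 in control + PLX choroids. In Tgfbr2ΔEC choroids it measured 25.4, 25.6, 48.7, 13.3 and 38.1 without and 39.8, 22.9, 28.8, 25.5 and 26.9 with PLX5622. These groups overlapped throughout, with a log2 difference over both genotypes of 0.24 (SE 0.31, adjusted p = 0.753). For Cxcr2, the receptor for CXCL1, CXCL2 and CXCL5, the values ran from 10.8 to 65.7 without and from 16.5 to 68.0 with PLX5622, and the difference was 0.20 (SE 0.35, adjusted p = 0.825). S100a9, whose values are given with genotype, differed by -0.03 (SE 0.31, adjusted p = 0.975). Camp differed by 0.15 (SE 0.15, adjusted p = 0.668) and Retnlg by 0.61 (SE 0.35, adjusted p = 0.366). An adjusted p above the threshold does not show that levels were equal.

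S100a9, S100a8 and Cxcr2 varied together from mouse to mouse. After removal of the 4 group means, S100a8 correlated over the 20 choroids with Cxcr2 (r = 0.83, permutation p = 0.00035; rho = 0.82, p = 0.00023) and with S100a9 (r = 0.72, permutation p = 0.00095; rho = 0.71, p = 0.00207). S100a9 correlated with Cxcr2 likewise (r = 0.79, permutation p = 0.00023; rho = 0.79, p = 0.00059). These were the 3 of 28 member pairs in choroid that passed adjustment over 77 relations by r, with adjusted p-values of 0.00539, 0.01 and 0.00443. By rho S100a8 with Camp passed too (rho = 0.63, permutation p = 0.00594, adjusted p = 0.0352; r = 0.57, p = 0.0228, adjusted p = 0.117; r = 0.66 without mice 2 and 12). Csf3r had r = 0.59 with Cxcr2 (permutation p = 0.0109, adjusted p = 0.0644; rho = 0.60, p = 0.00959; r = 0.66 without mice 7 and 8) and r = 0.44 with S100a9 (permutation p = 0.0798, adjusted p = 0.227; rho = 0.50, p = 0.0425; r = 0.26 without mice 2 and 8). Mice 2, 8, 11 and 12 held the 4 highest values of each of the 3 genes, with S100a8 at 88.5, 48.7, 71.3 and 92.7, S100a9 at 125, 85.5, 81.6 and 90.9 and Cxcr2 at 64.5, 65.7, 68.0 and 45.5. Without the 2 mice farthest from the median, r was 0.80 for S100a8 with Cxcr2, 0.61 for S100a8 with S100a9 (both without mice 2 and 12) and 0.68 for S100a9 with Cxcr2 (without mice 2 and 8).

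In choroid the relation of S100a8 and S100a9 with the phagocyte score did not pass the test (r = 0.21 and 0.18, permutation p = 0.383 and 0.369; rho = 0.29 and 0.25, p = 0.250 and 0.262), nor did that with the monocyte score (r = -0.16 and 0.0064, permutation p = 0.527 and 0.980; rho = -0.10 and 0.17, p = 0.707 and 0.509). Hemoglobin genes, a measure of blood in the sample, had r = -0.17 with S100a8 in choroid (permutation p = 0.553, adjusted p = 0.664 over 6 relations; rho = -0.10, p = 0.689) and r = 0.10 in retina (permutation p = 0.681, adjusted p = 0.681; rho = 0.15, p = 0.555). The retina of a mouse did not follow its choroid beyond the spread, with r = 0.30 for S100a8 (permutation p = 0.251; rho = 0.28, p = 0.28) and r = 0.45 for S100a9 (permutation p = 0.105; rho = 0.42, p = 0.123). Non-member genes whose choroid deviations were most like the mean of S100a8 and S100a9, out of 17589, were Gm2415 (r = 0.78), Ddx31 (0.76), Gm38431 (0.75), Hspa14 (0.75) and Rab26os (0.74), given as a description.

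**Figure D4:**
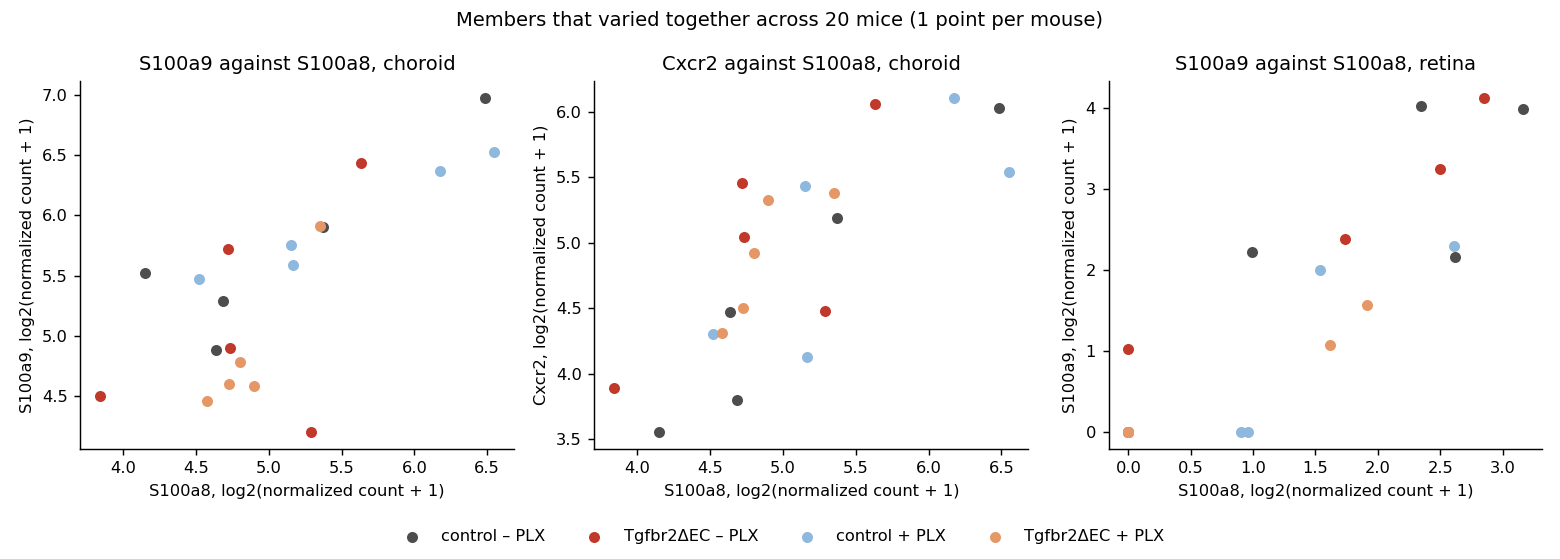
Members that varied together, as log2(normalized count + 1) on both axes, with 1 point per mouse coloured by group: S100a9 against S100a8 in choroid (left), Cxcr2 against S100a8 in choroid (middle) and S100a9 against S100a8 in retina (right). With group means removed, r is 0.72, 0.83 and 0.90, and several retinas lie at 0 on both axes.

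In retina, PLX5622 went with a loss of most Csf3r reads. On normal food the values were 145, 51.0, 31.6, 42.2 and 181 in control and 118, 43.9, 54.0, 20.8 and 38.7 in Tgfbr2ΔEC retinas. With PLX5622 they were 4.78, 5.08, 1.85, 4.85 and 1.32 in control and 12.48, 26.7, 0, 6.55 and 5.52 in Tgfbr2ΔEC retinas. The control groups did not overlap (exact permutation p = 0.00794), whereas the + PLX retina of mouse 17 at 26.7 lay above the – PLX retina of mouse 9 at 20.8 (exact permutation p = 0.0159). The mean went from 90.1 ± 67.9 (SD, n = 5) to 3.58 ± 1.83 in control mice and from 55.0 ± 37.03 to 10.2 ± 10.2 in Tgfbr2ΔEC mice.

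Csf3r fell by 4.09 (SE 0.69, adjusted p = 0.00179) in control retinas and by 3.42 (SE 0.49, adjusted p = 0.000144) over both genotypes on the log2 scale. The difference of -2.75 (SE 0.69) in Tgfbr2ΔEC retinas had an adjusted p of 0.107, which became 0.0239 without mouse 17, with a difference of -3.24. The 5 members with a retinal mean of at least 1 were S100a8, S100a9, Ltf, Csf3r and Cxcr2. Csf3r was 1 of 5 members tested in retina to be called in control mice, where 0.736% of 23243 genes were called. None of the 5 was called in Tgfbr2ΔEC mice, where 0.516% were called and 1 member had an unadjusted p under 0.05, and 1 was called over both genotypes, where 1.09% were called. The sum of the phagocyte markers went from 1865 to 3677 without to 290.4 to 445 with PLX5622 in control retinas, with C1qa at a mean of 385 and 1.91, and their part in the lower Csf3r of retina was not tested.

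S100a9 was also lower in + PLX retinas without passing the test over all genes. Its values were 15.2, 3.46, 3.68, 0 and 14.8 in control – PLX and 3.89, 2.99, 0, 0 and 0 in control + PLX retinas, and 16.5, 4.20, 8.49, 1.03 and 0 against 1.95, 1.099, 0, 0 and 0 in Tgfbr2ΔEC retinas. Of the 10 + PLX values only the 3.89 of mouse 11 and the 2.99 of mouse 12 were above the floor, and the groups overlapped at 0. The log2 difference over both genotypes was -1.62 (SE 0.57, adjusted p = 0.391, exact permutation p = 0.0165). Cxcr2 gave -0.92 (SE 0.45, adjusted p = 0.803), S100a8 -0.67 (SE 0.50) with an adjusted p of 1, and Ltf -1.18 (SE 0.73, adjusted p = 0.963). Without mouse 1 the Ltf difference was -0.62, and with the surface epithelium score in the fit it was -0.37. Under the alternative settings the differences ran from -2.01 to -0.80 for S100a9, from -1.04 to -0.57 for Cxcr2 and from -0.88 to -0.31 for S100a8.

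Retinal S100a8 and S100a9 varied together across mice (r = 0.90, permutation p = 2e-05; rho = 0.87, p = 2e-05; adjusted p = 0.00154 over 77 relations; r = 0.87 without mice 4 and 9). Both followed the phagocyte score in retina (r = 0.74 and 0.75, permutation p = 0.00104 and 0.00055, adjusted p = 0.01 and 0.00706; rho = 0.65 and 0.66, p = 0.00416 and 0.0025), and S100a9 followed the monocyte score (r = 0.84, permutation p = 0.0001, adjusted p = 0.00257; rho = 0.79, p = 0.00075). For S100a8 and the monocyte score only rho passed the adjustment (rho = 0.72, permutation p = 0.00332, adjusted p = 0.0232; r = 0.67, p = 0.00848, adjusted p = 0.0544; r = 0.64 without mice 1 and 6). Csf3r followed the monocyte score too (r = 0.61, permutation p = 0.00211, adjusted p = 0.0162; rho = 0.70, p = 0.00226). The difference between the tissues in these correlations was not tested. Csf3r correlated with S100a9 (r = 0.62, permutation p = 0.00135, adjusted p = 0.0116; rho = 0.72, p = 0.00062) and with S100a8 (r = 0.63, permutation p = 0.00354, adjusted p = 0.0248; rho = 0.69, p = 0.0025). Without the 2 farthest mice these values were 0.69 and 0.75 for the phagocyte score (mice 11 and 17), 0.80 for S100a9 and 0.53 for Csf3r with the monocyte score (mice 1 and 6), 0.59 for Csf3r with S100a9 (mice 4 and 6) and 0.59 with S100a8 (mice 4 and 9). Most of these S100a8 and S100a9 values are of a few reads. Non-members most like them in retina, out of 17179 genes and as a description, were Naip2 (r = 0.85), C5ar1 (0.84), Skap2 (0.83), Cd68 (0.82) and Tmem252 (0.82), of which C5ar1, the receptor for complement C5a, and Cd68 are known from phagocytes.

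Loss of endothelial Tgfbr2 moved no member past the test over all genes. In choroid 0 of 8 were called without PLX5622, with PLX5622 or over both diets, where 0.00423%, 0.00423% and 0.00847% of 23619 genes were called (1, 1 and 2 genes), and unadjusted p-values under 0.05 were seen for 0, 1 and 1 members. In retina 0 of 5 were called in each of the 3 comparisons, where 0% of 23243 genes were called, and no member had an unadjusted p under 0.05. The interaction of genotype and diet was called for 0 of 8 members in choroid and 0 of 5 in retina, against 0% of all genes in both tissues, with 1 and 0 members at an unadjusted p under 0.05. These counts are from limma, with 1558 choroid and 878 retina genes at an unadjusted p under 0.05 over both diets.

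The exact permutation test gave the smallest p-values for genotype in S100a9 and Retnlg in choroid, with differences in opposite directions. Ltf had larger differences with a wide error, of -1.20 (SE 0.88, adjusted p = 0.777) without PLX5622 and -1.08 (SE 0.62, adjusted p = 0.784) over both diets in choroid. Without mouse 4 the first of these was -0.47, and without mouse 5 it was -1.698, while the second was -0.71 without mouse 4. The 10 surface epithelium markers had a median log2 difference of -1.85 in choroid over both diets, with 0 called by limma and 5 at an unadjusted p under 0.05. With their score in the fit the Ltf differences were -0.28 (adjusted p = 0.965) and -0.07 (adjusted p = 0.988).

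S100a9 measured 38.2, 125, 28.4, 58.8 and 44.9 in control – PLX and 51.7, 28.9, 85.5, 21.6 and 17.4 in Tgfbr2ΔEC – PLX choroids. With PLX5622 it measured 81.6, 90.9, 53.0, 43.3 and 47.1 in control and 59.3, 20.96, 22.9, 23.2 and 26.5 in Tgfbr2ΔEC choroids, so that 4 of 5 Tgfbr2ΔEC + PLX values lay below every control + PLX value. The log2 difference of Tgfbr2ΔEC from control was -0.82 (SE 0.31, adjusted p = 0.752, exact permutation p = 0.0213) over both diets and -1.07 (SE 0.43) with PLX5622, with an adjusted p of 1 and an exact permutation p of 0.0317.

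Retnlg measured 21.5, 14.4, 12.2, 20.5 and 52.8 in control – PLX and 27.5, 6.005, 8.16, 22.7 and 53.4 in Tgfbr2ΔEC – PLX choroids, with broad overlap. With PLX5622 it measured 33.9, 19.8, 25.5, 16.4 and 16.1 in control and 51.5, 38.002, 35.8, 24.3 and 77.6 in Tgfbr2ΔEC choroids. Of the Tgfbr2ΔEC + PLX values only the 24.3 of mouse 19 lay within the control range, and the log2 difference was 0.94 (SE 0.50) with an adjusted p of 1 and an exact permutation p of 0.0238. On normal food the same genes gave -0.56 (SE 0.43, adjusted p = 0.792) for S100a9 and -0.23 (SE 0.50, adjusted p = 0.945) for Retnlg. Csf3r had the only interaction among members with an unadjusted p under 0.05. Its level on normal food was higher and on PLX5622 lower in Tgfbr2ΔEC than in control choroids, by 0.33 (SE 0.20) and -0.29 (SE 0.20). That interaction was -0.61 (SE 0.28, adjusted p = 0.717, exact permutation p = 0.0455). With the photoreceptor score in the fit it was -0.796 (SE 0.30, adjusted p = 1), and the difference on normal food was 0.52 (SE 0.24, adjusted p = 1). On normal food the same fit gave 1.12 (SE 0.57) for Cxcr2 and 0.72 (SE 0.46) for Mmp8, beside 0.38 and 0.035 without the score, and 0.16 (SE 0.54) beside -0.22 for S100a8, each with an adjusted p of 1 with the score.

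Ltf varied with surface epithelium markers in retina, and both tissues held 1 library that was high for Ltf and keratins alike. Lactoferrin, its product, is a protein of neutrophil granules that is also secreted by glands and mucosal epithelia. In choroid it measured 20.1, 46.9, 57.1, 370.0 and 11.2 in control – PLX and 2.19, 65.3, 63.4, 7.58 and 13.2 in control + PLX mice, with 9.74 to 43.2 in Tgfbr2ΔEC – PLX and 2.90 to 24.0 in Tgfbr2ΔEC + PLX mice. In retina mouse 1 had 110.3 and the other 19 retinas had 0 to 8.82. The same 2 libraries, mouse 4 choroid and mouse 1 retina, held the highest Krt13 (5552 and 5734) and Krt5 (4561 and 5856), keratins of stratified epithelium, and the highest Asprv1 (1851 and 2877) and Pglyrp1 (571 and 1095) from the wider neutrophil list.

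Next in Ltf were the choroids of mice 12, 13 and 3, which also ranked 4, 2 and 3 of 20 in Krt13 (190.1, 661 and 375). The correlation of Ltf with the surface epithelium score, group means removed, was r = 0.84 in retina (permutation p = 9e-05, adjusted p = 0.00257; rho = 0.72, p = 1e-05) and r = 0.66 in choroid (permutation p = 0.0176, adjusted p = 0.097; rho = 0.44, p = 0.1). Without the 2 farthest mice r was 0.67 (mice 1 and 5) and 0.42 (mice 4 and 5), so the choroid value rested on those mice. Ltf gave a log2 difference with PLX5622 of -1.34 (SE 0.62, adjusted p = 0.239) in choroid over both genotypes. With the surface epithelium score in the fit this difference was -0.54 (adjusted p = 0.668).

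**Figure D5:**
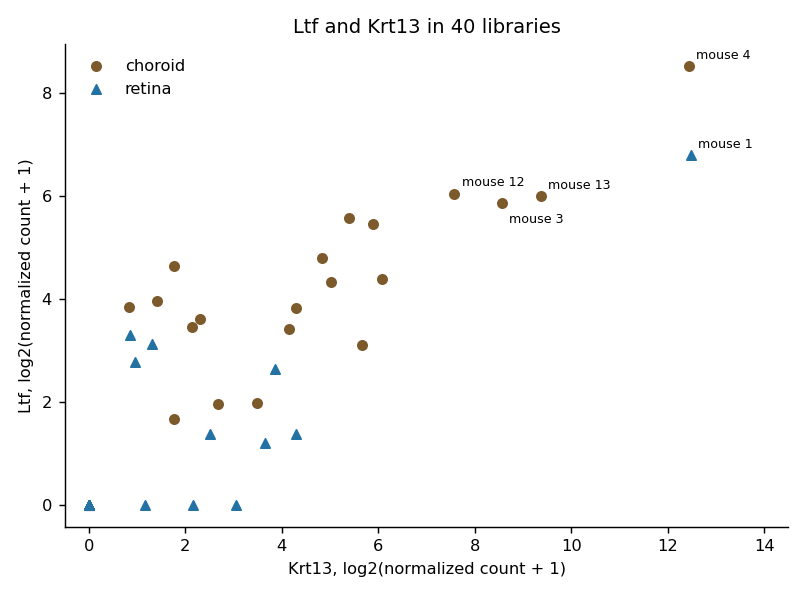
Ltf against the epithelial keratin Krt13 in 40 libraries, both as log2(normalized count + 1), with choroids as circles and retinas as triangles. The choroid of mouse 4 (Ltf 370.0) and the retina of mouse 1 (Ltf 110.3) lie far to the right, followed by the choroids of mice 13, 3 and 12.

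The wider neutrophil list of 38 genes held further members of each role, of which 31 were tested in choroid. Over both genotypes 9 of them fell and 1 rose with PLX5622, beside the 7.13% called among all genes, and their median log2 difference was -0.29. Those that fell were the formyl peptide receptors Fpr1 (-2.42, adjusted p = 0.000195) and Fpr2 (-1.86, adjusted p = 0.0131), the lectins Clec4d (-1.40, adjusted p = 8.82e-05) and Clec4e (-1.17, adjusted p = 0.0285), Ifitm6 (-1.74, adjusted p = 0.00243), Cd177 (-1.498, adjusted p = 0.0147), Slfn4 (-1.11, adjusted p = 0.0349), Trem1 (-1.06, adjusted p = 0.0321) and Mmp9 (-0.51, adjusted p = 0.0463). Several of these, among them Clec4d, Clec4e, Fpr1, Fpr2 and Trem1, are known to be expressed by monocytes and macrophages too. Clec4d, for example, was at 466 ± 63.8 (SD, n = 5) and 494 ± 63.2 in control and Tgfbr2ΔEC – PLX choroids and 260.1 ± 138 and 149 ± 59.0 with PLX5622. Mxd1 (mean 838) and Lrg1 (mean 636) were the highest of the list in choroid and were not called.

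Cd177, a neutrophil surface glycoprotein, ranged from 10.3 to 29.4 in the control – PLX choroids and from 14.7 to 24.5 in the Tgfbr2ΔEC – PLX choroids. With PLX5622 it was at 0 to 15.4 and 4.73 to 9.62, so the groups overlapped in control and not in Tgfbr2ΔEC mice. Cxcr1, the second receptor for neutrophil-attracting chemokines, went the other way, at 0 to 3.74 in control – PLX and 7.18 to 20.8 in control + PLX choroids. It rose by 1.503 on the log2 scale (adjusted p = 0.0181) over both genotypes and by 2.08 (adjusted p = 0.0331) in control choroids, where its values on normal food were near the floor. In single genotypes 2 of the 31 fell (Fpr1 and Clec4e) and 1 rose (Cxcr1) in control choroids, beside 3.75% called among all genes, and 3 fell (Fpr1, Clec4d and Ifitm6) in Tgfbr2ΔEC choroids, beside 4.06%. None of the 31 was called for genotype without PLX5622, with PLX5622 or over both diets by limma, with 1, 5 and 5 at an unadjusted p under 0.05.

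In retina 23 of the 38 were tested, and Lcn2 and Clec4d fell in control mice and over both genotypes, beside the 0.736% and 1.09% called among all genes. Lcn2, for the iron-binding lipocalin of neutrophil granules that retinal glia also make after injury, ranged from 349 to 940.1 in the control – PLX and from 42.8 to 576 in the control + PLX retinas, a log2 difference of -2.62 (adjusted p = 0.0486). Those control groups overlapped through 1 + PLX retina at 576. In Tgfbr2ΔEC retinas it was at 83.0 to 878 without and 57.4 to 165 with PLX5622, and its means over 20 mice were 167 in choroid and 329 in retina. Clec4d was at 3.06 to 6.34 in control – PLX retinas and at 0 in all 10 + PLX retinas. Besides Lcn2, the highest of the list in retina were Mxd1 (mean 1230.1), Mmp9 (529) and Hdc (386), of which Hdc, for histidine decarboxylase, and Mxd1 were called higher in retina than in choroid. Of the 30 tested over both tissues, beside the 82% called among all genes, 22 were higher in choroid (among them Prtn3, Cd177, Mmp25, Padi4, Fpr1, Fpr2, Il1r2, Trem1, Clec4d, Clec4e, Asprv1, Hp, Slfn4, Ifitm6, Lrg1, Chil3, Cebpe, Slpi and Cxcr1), by 0.49 (Prtn3) to 7.29 (Clec4d) on the log2 scale, and 3 were lower (Hdc by -3.72, Olfm4 by -3.91 and Mxd1 by -0.56). Among those called higher in choroid, Cd177, Fpr1, Stfa2l1, Wfdc21, Cebpe and Cxcr1 had retinal means below 1. They passed the filter only through choroid, so their direction was fixed in advance. Exons overlap those of other genes by 1171 bases in Lrg1, 823 in Trem1, 523 in Mpo, 413 in Padi4 and 327 in Gfi1, and by less in Slpi, Prtn3, Mmp25, Olfm4, Stfa2, Fpr2, Asprv1, Stfa1 and Pglyrp1. Among the ligands and receptors described next they overlap by 626 bases in Csf3 and 523 in Cxcl5, and by less in Tlr4, Csf2 and Il1b.

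The ligands of the receptor members were mostly chemokines of the choroid. Csf3, the ligand of the Csf3r product, was at 0 in 14 choroids and 17 retinas, with highest values of 9.02 and 2.70. Among the CXCR2 ligands, Cxcl5 averaged 225 in choroid and 1.13 in retina, Cxcl1 49.5 and 1.16, and Cxcl2 15.8 and 0.435. Of 9 ligands and receptors of the list tested in choroid, Cxcl2 (-1.51, adjusted p = 0.0101) and Il1b (-1.37, adjusted p = 0.0122), for interleukin 1β, fell with PLX5622 over both genotypes, beside the 7.13% called among all genes. In Tgfbr2ΔEC choroids Cxcl2 went from 28.5 ± 13.8 (SD, n = 5) to 6.12 ± 2.56, the only one of the 9 called there, beside 4.06% of all genes (log2 difference -1.96, adjusted p = 0.0306). Cxcl5 (-0.23, adjusted p = 0.671) and Cxcl1 (0.43, adjusted p = 0.454) gave differences within their spread. The receptors for extracellular calprotectin were read in choroid at means of 653 for Tlr4, with a difference of -0.20 (adjusted p = 0.209), and 76.8 for Ager, with 0.24 (adjusted p = 0.502), and in retina at 20.5 and 71.8. Of 8 genes of the list tested over both tissues, beside the 82% called among all genes, 7 were higher in choroid (Cxcl1, Cxcl2, Cxcl3, Cxcl5, Ppbp, Il1b and Tlr4), and Ager differed by 0.12 (SE 0.14). Cxcl2, Cxcl3 and Ppbp, with retinal means of 0.435, 0.0388 and 0.678, passed the filter only through choroid, so their direction was fixed in advance. In retina none of the 5 tested was called by limma, with 1 at an unadjusted p under 0.05 over both genotypes.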

How the data were processed

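Polyadenylated RNA of 20 retinas and 20 choroids was sequenced from a stranded library. The deposited table holds 1 signal value per gene and library, the normalized counts that the authors obtained from Salmon 1.10.1 estimates on GRCm39 with the GENCODE release vM29, summarised with tximport and divided by DESeq2 1.36.0 size factors (FastQC 0.11.5 for quality; versions per the submitters' processing notes). The authors analysed the tissues apart, but median-of-ratios factors recomputed from the deposited values were 1.01 in each of the 40 libraries when taken over both tissues, and 0.983 to 1.03 in choroid or 0.992 to 1.04 in retina when taken within a tissue, so the table holds both tissues scaled together. The strand setting is not given in the sources used here, and 0 columns of per-sample values were left out. Between 47.7% and 75.2% of low values were within 0.1 of whole multiples of 1 read, too few for a count test, so reads and floors are estimates.

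Values were tested as log2(value + 1) with limma 3.58.1 (R 4.3.3), separately in choroid and retina with all 4 groups in 1 fit, after genes with a mean under 1 had been dropped, and p-values were adjusted over all genes tested by Benjamini and Hochberg (threshold 0.05). Log2 differences are on this scale and understate changes of low genes. Exact permutation tests over mice (two-sided, 252 or 63504 relabellings, the latter within genotype or diet) were run for members, and correlations used 100000 permutations (two-sided). Scores are mean log2 values over a marker list. The family of 77 correlations, the surface epithelium covariate and the fit without mice 1 and 4 were chosen after seeing the data. Other alternatives were the pseudocount, the filter, the scaling, the variance estimate, the samples in the fit, sex and neural retina scores as covariates and each mouse left out. The authors' own covariates, sex and an estimated neuronal share, were not used here.

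Samples were grouped by the labels, and the library names give 1 retina and 1 choroid the same mouse number. Same-numbered libraries had correlations of deviations from the group means of -0.20 to 0.35 (median 0.18, over 0.1 in 14 of 20 mice, 15687 genes). Replicates are separate mice.

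The members and gene lists were chosen with earlier results of these data known. Named are all members, genes of the wider neutrophil and ligand lists that were called in any comparison or had the 4 highest means in a tissue, the ligands Csf3, Cxcl1, Cxcl2 and Cxcl5, the granule genes Mpo, Elane and Lcn2, the defining markers of lists that moved with a result, and the 5 genes per tissue most like S100a8 and S100a9. Krt13 and Krt5 were named after their values were seen. Not every gene that this rule names is reported here. Sequences and loci are from GRCm39 with GENCODE vM39, at the canonical start. The fits were tested on simulated data. Other steps ran in Python (3.11.15) with scipy (1.17.1), pandas (2.3.3) and numpy (2.4.6).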

Additional observations from a re-analysis of the deposited data

Results flagged for a closer look

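Single mice stood apart from the other 4 of their group in 19 of 70 group and gene combinations examined. Chance gives about 1 in 20 where values follow a normal distribution, which counts with many zeros do not, so nothing is read from the share. Each is given as the gap to the nearest mouse divided by the range of the group. In choroid Ltf of mouse 4 (370.0, next 57.1) had 0.872, Mmp8 of mouse 1 (197, next 129) 0.983, Retnlg of mouse 5 (52.8, next 21.5) 0.771 and S100a9 of mouse 16 (59.3, next 26.5) 0.856. In retina Ltf of mouse 1 (110.3, next 8.82) had 0.92, Ltf of mouse 7 (7.75, next 1.59) 0.794 and Retnlg of mouse 12 (3.996, next 0.975) 0.756.

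In the other 12 combinations the value was 1, because 4 mice of the group were at 0. These were Ly6g in the choroid of mouse 6 and the retina of mouse 10, Ngp in the choroid of mouse 10 and the retinas of mice 2, 12 and 19, Ltf in the retinas of mice 14 and 18, Retnlg in the retina of mouse 16 and Mmp8 in the retinas of mice 9, 14 and 17. All but 3 of them, Ngp of mouse 12 (3.82) and Ltf of mice 14 and 18 (5.81 and 5.21), were at or under the floor.

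The genotype effect on Csf3r in choroid differed between the diets by -0.614 on the log2 scale (exact permutation p = 0.0455), being 0.33 without and -0.29 with PLX5622. Over all genes tested that difference had an adjusted p of 0.717.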

How the results depend on the processing

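How many members were called in each comparison changed only for diet, in control choroids and in Tgfbr2ΔEC retinas. In control choroids the count of 1 (Csf3r) became 0 with the surface epithelium score as a covariate (log2 difference -0.74, adjusted p = 0.0586) and 0 without mice 1 and 4 (-0.80, adjusted p = 0.0931), both chosen after seeing the data. Leaving out single mice gave 0 to 1. In Tgfbr2ΔEC retinas the count of 0 ranged from 0 to 1, and was 1 (Csf3r) without mouse 17. The counts of all other comparisons stayed the same under the alternatives run. No member's called difference reversed, and Mmp8 in Tgfbr2ΔEC choroids stayed called with each mouse left out (-2.03 to -1.50, adjusted p 0.00251 to 0.0413). The causes were not tested. With the mouse as a replicate block, in the pairing of choroid and retina, 8 of 8 members were called between the tissues as without it, and no call changed. For Camp, Retnlg and Mmp8 the filter fixed the direction, so the unchanged calls do not check it. No paired analysis was possible for diet or genotype because each mouse has 1 diet and 1 genotype. At this depth 0 of 10 members were above the floor in every retina, against 7 of 10 in every choroid.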
